A study of Mus musculus with 4 samples.

Results

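The 9 genes described here are S100a8, S100a9, Trem1, Acod1, Retnlg, Csf3r, Clec4d, Ngp and Mpo, 8 of them known from neutrophils and 1 of them, Acod1, the enzyme that makes itaconate. They were taken by symbol, and all 9 were found among the 28545 genes listed for each library. Polyadenylated RNA of mouse endometrium, the lining of the uterus, was sequenced in 4 libraries. In 2 of them the label reads SMAD7 Cre+/- and the treatment is given as CKO, and in the other 2 the label reads SMAD7fl/fl and the treatment is blank. All the mice descend from eggs in which Cas9, a guide RNA and a donor vector placed loxP sites in Smad7, and the design text puts all of them at proestrus, the stage of the cycle before ovulation. The labels name neither the promoter that drives Cre nor the exons between the loxP sites, the strain or the age. They also do not state that each library is from its own mouse, so the spread behind every p-value could be technical.

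Smad7 itself, the inhibitor of TGF-beta receptor signalling, held 226 and 153 CPM in the libraries labelled Cre+/-, against 34.1 and 36.5 CPM in those labelled fl/fl, with a log2 fold change of 2.42 ± 0.28 (SE) and an edgeR adjusted p of 0.0981. CPM is a count scaled to a common library size. Smad7 was therefore higher in the libraries labelled Cre+/-, which goes against that label, and every direction below is that of the libraries so labelled, not of a measured loss of Smad7. Total counts ran from 17444368 to 22950532 per library. Over the tested genes, the rank correlation was 0.985 between the libraries labelled Cre+/- and 0.908 between those labelled fl/fl. Between libraries of different groups it ran from 0.912 to 0.920. By rank, the libraries labelled fl/fl were thus less like each other than like those labelled Cre+/-. Markers of the labelled tissue were present, with the 10 listed epithelial genes summing to 2803 and 2298 CPM in the libraries labelled Cre+/-, against 1960 and 3461 CPM in those labelled fl/fl, and the 10 stromal genes summing to 12970 and 11400 CPM against 11050 and 9778 CPM. At an unadjusted p under 0.05, where 6.59% of all tested genes were lower and 7.3% higher in the libraries labelled Cre+/-, 1 of the epithelial genes was lower and 0 higher (median log2 fold change 0.05) and 1 of the stromal genes was lower and 1 higher (median 0.08). Without fl/fl replicate 1 the number of epithelial genes lower was 4 and their median -0.30, and that median was 0.38 without fl/fl replicate 2. Without fl/fl replicate 2 the number of stromal genes lower was 4, and their median was -0.06 without Cre+/- replicate 1. Of 8 smooth muscle genes 0 were lower and 4 higher, with a median of 0.71. They summed to 8914 and 7716 CPM in the libraries labelled Cre+/-, against 5072 and 4313 CPM in those labelled fl/fl. Whether this unequal share of muscle RNA bears on the differences below was not tested.

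Neutrophils are short-lived white cells made in the bone marrow under the growth factor G-CSF, and they enter tissues along gradients of chemokines read by the receptor CXCR2. Their granule proteins are made in order as the cell matures, with the azurophilic granules and Mpo first in the promyelocyte, then the specific granules with Ngp, and the gelatinase granules last, while the cytosol of the mature cell is rich in S100A8 and S100A9. In the mouse uterus the number of neutrophils varies over the estrous cycle. Acod1 converts cis-aconitate of the citric acid cycle to itaconate in activated macrophages and neutrophils, and in mice it is also known from the uterine epithelium at implantation.

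S100a8, S100a9 and Acod1 were near 0 in both libraries labelled Cre+/- and clearly present in both libraries labelled fl/fl, and Trem1 had no count at all in the libraries labelled Cre+/-. Retnlg, Csf3r and Clec4d were lower in the libraries labelled Cre+/- by a smaller factor, between 3.11-fold and 4.61-fold. Ngp was at 10 counts or fewer in every library, and Mpo, the early granule enzyme, showed overlapping groups. In 8 of the 9 genes both libraries labelled Cre+/- lay below both libraries labelled fl/fl. That was also so for 17.2% of the 27379 genes with a count and for 23.6% of the 13513 genes tested. At an adjusted p under 0.05 edgeR's quasi-likelihood test called 0% of the 13513 genes it tested, and so none of these 9 genes, with a lowest adjusted p of 0.0838 over all genes.

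**Figure D1:**
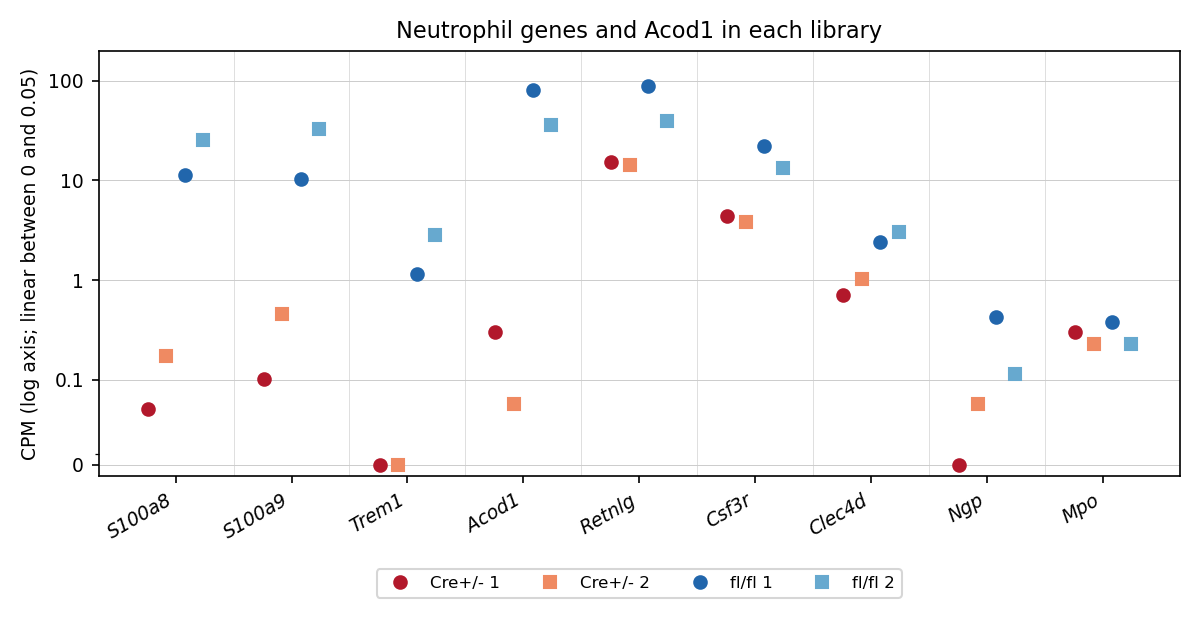
Level of each of the 9 genes in each library, as CPM on a log axis that is linear between 0 and 0.05. Red and orange points are the libraries labelled Cre+/- and blue points those labelled fl/fl, with 1 point per library and no averaging. S100a8, S100a9, Trem1 and Acod1 stand more than an axis decade apart between the groups, Retnlg, Csf3r and Clec4d less, and Mpo overlaps.

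S100a8 and S100a9 encode the subunits of calprotectin, a protein that binds calcium, zinc and manganese and fills the neutrophil cytosol. S100a8 (ENSMUSG00000056054, chr3:90668978-90670035, plus strand of GRCm38) held 0.0505 and 0.172 CPM in the libraries labelled Cre+/-, from 1 and 3 counts, against 11.2 and 25.5 CPM in those labelled fl/fl, from 266 and 448 counts. Its values did not overlap between the groups, and the higher fl/fl library was replicate 2. Summed over each group, the level of S100a8 was 161-fold lower in the libraries labelled Cre+/-, with a 95% exact binomial interval of 62.7 to 593 that covers counting error only. The fitted log2 fold change was -7.32 ± 0.79 (SE, n = 2 each), with an edgeR adjusted p of 0.0919. Leaving out 1 library moved the ratio of S100a8 to 101 without Cre+/- replicate 1 and to 342.5 without Cre+/- replicate 2, and to 238 without fl/fl replicate 1 and 105 without fl/fl replicate 2.

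S100a9 (ENSMUSG00000056071, chr3:90692632-90695721, minus strand) lies beside S100a8 and was read in 2 and 8 counts, or 0.101 and 0.457 CPM, in the libraries labelled Cre+/-, against 242 and 571 counts, or 10.2 and 32.5 CPM, in those labelled fl/fl. The groups of S100a9 did not overlap either, and fl/fl replicate 2 was again the highest library. The summed level of S100a9 was 73.4-fold lower in the libraries labelled Cre+/- (95% interval 39.7 to 154), and the log2 fold change was -6.26 ± 0.95 (SE), edgeR adjusted p = 0.108. The ratio was 43.0-fold without Cre+/- replicate 1, 195-fold without Cre+/- replicate 2, 121-fold without fl/fl replicate 1 and 38.1-fold without fl/fl replicate 2. Per length, S100a9 stood at 20.2 and 60.1 FPKM in the libraries labelled fl/fl and S100a8 at 16.7 and 35.5 FPKM, so S100a9 was the higher of the pair in both. The FPKM ratio of S100a9 to S100a8 was 2.66 and 3.54 in the libraries labelled Cre+/-, where it rests on 1 and 3 counts of S100a8, and 1.21 and 1.70 in those labelled fl/fl.

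No other tested gene for an S100 protein or its receptors was this much lower. Of 17 such genes listed 15 were found and 11 tested, and 0 were lower and 1 higher at an unadjusted p under 0.05, though 5 were lower without fl/fl replicate 1 and 2 without fl/fl replicate 2. The lowest log2 fold change among them was -1.54, for S100g, and the median log2 fold change of these 11 genes was -0.28, beside -0.03 over all tested genes. The median was 0.03 without Cre+/- replicate 2 and -0.61 without Cre+/- replicate 1. S100a11, a widely expressed member, held 202 and 225 CPM in the libraries labelled Cre+/-, against 295 and 348 CPM in those labelled fl/fl. S100b, known from glia, was the gene higher at an unadjusted p, with 0.757 and 6.86 CPM in the libraries labelled Cre+/-, against 0.253 and 0.455 CPM in those labelled fl/fl.

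Trem1 encodes a surface receptor of neutrophils and monocytes that amplifies inflammatory signals through the adaptor DAP12. Trem1 (ENSMUSG00000042265, chr17:48232768-48246924, plus strand) had 0 counts in both libraries labelled Cre+/-, against 27 and 50 counts, or 1.14 and 2.84 CPM, in those labelled fl/fl. With 3 counts over the group as the limit that a count of 0 allows, Trem1 was at least 23.2-fold lower in the libraries labelled Cre+/-. That bound was at least 10.9-fold without Cre+/- replicate 1, 12.3-fold without Cre+/- replicate 2, 35.4-fold without fl/fl replicate 1 and 14.2-fold without fl/fl replicate 2. Its mean FPKM of 0.328 was under the minimum of 1, so Trem1 had no test in the main comparison.

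Acod1 (ENSMUSG00000022126, chr14:103046977-103056573, plus strand) had the largest ratio by summed counts among the 8 genes with a count in both groups. It was read in 6 and 1 counts, or 0.303 and 0.0572 CPM, in the libraries labelled Cre+/-, against 1933 and 626 counts, or 81.5 and 35.6 CPM, in those labelled fl/fl. The groups of Acod1 did not overlap, and here fl/fl replicate 1 was the highest library, the reverse of S100a8 and S100a9. The summed level was 330.2-fold lower in the libraries labelled Cre+/- (95% interval 160.0 to 822), and the log2 fold change was -8.25 ± 0.78 (SE), edgeR adjusted p = 0.0919. The ratio of Acod1 was 1084-fold without Cre+/- replicate 1, 205-fold without Cre+/- replicate 2, 189.7-fold without fl/fl replicate 1 and 434-fold without fl/fl replicate 2.

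S100a8, S100a9 and Acod1 are 3 of the 15 tested genes whose summed level was at least 50-fold lower in the libraries labelled Cre+/-, which is 0.111% of the tested genes. All 3 passed the filter on low values only through the libraries labelled fl/fl, and the size of 50 was chosen with their values known, so this count describes them and tests nothing. Their promoters are shown because these genes had the largest fitted differences of the 6 tested. Each runs 5′ to 3′ on the strand of its gene, from 250 bases before to 50 bases after the RefSeq start on GRCm38.p6, and the capitals mark TATAAA, the core of the TATA box to which the general transcription machinery binds.

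S100a8 promoter: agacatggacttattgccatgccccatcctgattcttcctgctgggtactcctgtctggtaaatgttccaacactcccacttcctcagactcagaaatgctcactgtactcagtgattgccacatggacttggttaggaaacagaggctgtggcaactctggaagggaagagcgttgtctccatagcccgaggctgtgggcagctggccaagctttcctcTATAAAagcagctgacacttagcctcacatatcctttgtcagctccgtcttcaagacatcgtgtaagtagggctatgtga
S100a9 promoter: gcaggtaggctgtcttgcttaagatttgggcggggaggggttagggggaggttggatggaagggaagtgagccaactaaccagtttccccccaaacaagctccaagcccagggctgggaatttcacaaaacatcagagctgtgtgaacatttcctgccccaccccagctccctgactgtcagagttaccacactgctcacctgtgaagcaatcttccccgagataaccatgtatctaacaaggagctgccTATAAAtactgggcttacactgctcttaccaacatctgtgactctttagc
Acod1 promoter: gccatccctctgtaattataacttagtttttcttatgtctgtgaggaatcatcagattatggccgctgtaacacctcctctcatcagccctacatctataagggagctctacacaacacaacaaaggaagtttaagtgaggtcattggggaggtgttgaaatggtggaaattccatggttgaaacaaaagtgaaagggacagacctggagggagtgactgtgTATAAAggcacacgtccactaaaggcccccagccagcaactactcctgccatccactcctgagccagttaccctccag

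The promoter of S100a8 is at chr3:90668821-90669120 (plus strand), that of S100a9 at chr3:90695672-90695971 (minus strand) and that of Acod1 at chr14:103046762-103047061 (plus strand). TATAAA begins 30 bases before the RefSeq start of S100a8 and 28 bases before that of Acod1 on the strand of the gene, and at the RefSeq start itself in S100a9. The RefSeq starts of S100a8 and Acod1 lie inside the GENCODE gene spans printed above, and so does TATAAA in both. RefSeq held a promoter for all 9 genes, and these 3 were the ones with TATAAA on either strand, a sequence found in 13.6% of the 32851 promoters of the same length. Altogether 19 motifs were searched on both strands, with the genes' values known. GAGGAAG, the form bound by PU.1 and other ETS factors of myeloid cells, was found in the promoters of S100a8, Csf3r, Clec4d and Mpo and in 13.6% of all promoters. TTNNGCAA, a form bound by C/EBP factors, was found for S100a9, Ngp and Retnlg and in 10.8% of all promoters, and GGAAATTCC, a form bound by NF-kB, for Acod1 alone and in 0.317% of all promoters. A second form searched for NF-kB was found for none of the 9 genes and in 4.79% of all promoters. A stricter form searched for C/EBP factors was also found for none of them, and in 0.183% of all promoters. Other motifs of the search had no match among the 9 genes either, and not all motifs are named here. A match of letters is a description of these windows and not a site of binding.

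Around Acod1, the genes that were lower at an unadjusted p included regulators of its transcription. Of 27 genes for the citric acid cycle, itaconate handling and known inducers of Acod1, 24 were tested, of which 4 were lower and 0 higher at an unadjusted p under 0.05, with a median log2 fold change of -0.17. The number lower was 2 without Cre+/- replicate 1, 0 without Cre+/- replicate 2, 10 without fl/fl replicate 1 and 6 without fl/fl replicate 2. Irf1, an interferon-induced factor that activates Acod1 in macrophages, held 48.1 and 40.0 CPM in the libraries labelled Cre+/- against 282.5 and 90.2 CPM in those labelled fl/fl. Atf3, a stress-induced factor, held 7.93 and 6.57 CPM against 27.1 and 14.7 CPM. Myd88, the adaptor of Toll-like receptors, held 40.6 and 41.2 CPM against 61.1 and 56.1 CPM. For Irf1 and Atf3 fl/fl replicate 1 was the highest library, as it was for Acod1, and none of these genes passed an adjusted p of 0.05 in edgeR.

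Retnlg encodes a secreted resistin-like protein of neutrophils and was the most abundant of the 9 genes per length in the libraries labelled Cre+/-. Retnlg (ENSMUSG00000022651, chr16:48872621-48874496, plus strand) held 15.1 and 14.1 CPM in the libraries labelled Cre+/-, from 300 and 247 counts, against 88.3 and 39.8 CPM in those labelled fl/fl, from 2095 and 699 counts. The libraries labelled Cre+/- stood close together, and both lay below the lower fl/fl library. The summed level was 4.61-fold lower in the libraries labelled Cre+/- (95% interval 4.21 to 5.07), and 2.71-fold lower without fl/fl replicate 1. The log2 fold change of Retnlg was -2.13 ± 0.42 (SE), edgeR adjusted p = 0.155.

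Csf3r encodes the receptor for G-CSF. Csf3r (ENSMUSG00000028859, chr4:126024550-126044440, plus strand) held 4.39 and 3.83 CPM in the libraries labelled Cre+/-, from 87 and 67 counts, against 22.0 and 13.2 CPM in those labelled fl/fl, from 522 and 232 counts. As with Retnlg the groups did not overlap and fl/fl replicate 1 was the highest. The summed level was 4.42-fold lower in the libraries labelled Cre+/- (95% interval 3.71 to 5.29), and the log2 fold change was -2.10 ± 0.39 (SE), edgeR adjusted p = 0.145. Of the 50-base stretches in its transcripts 10.7% occur in transcripts of other genes, so part of its reads could have been assigned elsewhere or left out.

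Clec4d encodes a C-type lectin receptor of neutrophils and macrophages that binds mycobacterial glycolipid. Clec4d (ENSMUSG00000030144, chr6:123262111-123275265, plus strand) held 0.707 and 1.03 CPM in the libraries labelled Cre+/-, from 14 and 18 counts, against 2.40 and 3.01 CPM in those labelled fl/fl, from 57 and 53 counts. Each group was tight and the groups did not overlap. The summed level was 3.11-fold lower in the libraries labelled Cre+/- (95% interval 2.08 to 4.76), and the log2 fold change was -1.64 ± 0.51 (SE), edgeR adjusted p = 0.274.

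Around Clec4d and Trem1, 16 further C-type lectin, TREM and adaptor genes were listed and 10 tested, of which 4 were lower and 0 higher at an unadjusted p under 0.05. Their median log2 fold change was -0.73, and -0.33 without fl/fl replicate 1, and the number lower was 2 without either Cre+/- library and 7 without fl/fl replicate 2. Tyrobp, which encodes DAP12, the adaptor of TREM1, held 23.1 and 20.7 CPM in the libraries labelled Cre+/- against 54.2 and 39.9 CPM in those labelled fl/fl. Fcer1g, the signalling chain with which CLEC4D pairs, held 20.7 and 18.6 CPM against 58.1 and 47.4 CPM. Both adaptors were thus present in the libraries labelled Cre+/- although Trem1 was at 0, and neither passed an adjusted p of 0.05 in edgeR. Clec4e, the neighbouring lectin Mincle, was under the filter, with 0.0505 and 0.515 CPM against 1.56 and 4.72 CPM.

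Ngp and Mpo, granule genes that neutrophil precursors make, were low in every library. Ngp, a cathelicidin-like protein of the specific granules (ENSMUSG00000032484, chr9:110419747-110423012, plus strand), had 0 and 1 counts in the libraries labelled Cre+/-, against 10 and 2 counts in those labelled fl/fl. The ratio of Ngp was 10.8-fold lower in the libraries labelled Cre+/-, with a 95% interval of 1.60 to 463, and it was 5.08-fold without Cre+/- replicate 1, 1.92-fold without Cre+/- replicate 2, 4.24-fold without fl/fl replicate 1 and 15.7-fold without fl/fl replicate 2. Mpo, the myeloperoxidase of the azurophilic granules (ENSMUSG00000009350, chr11:87793581-87804413, plus strand), had 6 and 4 counts, or 0.303 and 0.229 CPM, in the libraries labelled Cre+/-, against 9 and 4 counts, or 0.379 and 0.227 CPM, in those labelled fl/fl. The groups of Mpo overlapped, and the ratio of 1.17-fold lower had an interval from 0.476 to 2.99, so no difference was detectable at this depth. Of the exon bases of Mpo 14.95% are shared with another annotated gene. Both genes were under the filter and had no test.

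Other granule genes ran from no count to high levels. Elane, neutrophil elastase, had 3 and 0 counts in the libraries labelled Cre+/-, against 1 and 0 in those labelled fl/fl. Ctsg, cathepsin G, had 0 and 0 against 2 and 0 counts, and Camp, the cathelicidin of the specific granules, 0 and 0 against 1 and 0. Prtn3, proteinase 3, had 33 and 20 counts against 14 and 38, and Ctsc, the protease that activates these enzymes and is widely expressed, held 78.2 and 87.9 CPM against 178 and 102 CPM. Of 7 genes listed under azurophilic granules 6 were found and 2 tested, namely Serpinb1a and Ctsc. Of these 0 were lower or higher at an unadjusted p under 0.05. Their median log2 fold change was -0.53, or -0.20 without fl/fl replicate 1. Elane, Prtn3 and Ctsg were under the filter, so this median does not describe them. Of 15 specific and gelatinase granule genes 10 were tested, and 1 was lower and 0 higher at an unadjusted p under 0.05, with a median log2 fold change of -0.20, which was 0.19 without fl/fl replicate 2, when 4 were lower, and 3 were lower without fl/fl replicate 1 and 0 without Cre+/- replicate 2. The lower one was Mmp9, gelatinase B, with 18.3 and 15.7 CPM in the libraries labelled Cre+/-, against 76.7 and 31.3 CPM in those labelled fl/fl. Ltf, lactoferrin, which the mouse uterine epithelium also secretes under estrogen, held 3688 and 2212 CPM in the libraries labelled Cre+/-, against 677 and 2152 CPM in those labelled fl/fl, and its groups did not overlap.

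Genes of the mature neutrophil that were lower included its main chemokine receptor. Of 15 surface genes 12 were tested, and 6 were lower and 0 higher at an unadjusted p under 0.05, with a median log2 fold change of -1.00. The number lower was 3 without Cre+/- replicate 2 and 9 without fl/fl replicate 2. Cxcr2, the chemokine receptor of neutrophils, held 0.101 and 0.0572 CPM in the libraries labelled Cre+/- against 6.83 and 5.97 CPM in those labelled fl/fl, with a log2 fold change of -6.21 ± 0.60 (SE) and an edgeR adjusted p of 0.0919. Its fitted difference was close to that of S100a9, and its fl/fl libraries stood closer together. Selplg, the ligand of P-selectin, held 21.7 and 21.3 CPM against 40.4 and 47.2 CPM. Ly6g, the usual surface marker of mouse neutrophils, was low throughout, with 15 and 11 counts in the libraries labelled Cre+/-, against 26 and 41 counts in those labelled fl/fl.

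Of 15 cytosolic and secreted genes of the mature cell 14 were found and 8 tested, and 3 were lower and 1 higher at an unadjusted p under 0.05, with a median log2 fold change of -1.16, or -0.69 without fl/fl replicate 1 and 0.30 when genes needed a mean FPKM of at least 5. Slfn4, a Schlafen gene of myeloid cells, held 0.505 and 0.915 CPM in the libraries labelled Cre+/- against 9.83 and 18.9 CPM in those labelled fl/fl. Asprv1, a protease of skin and of neutrophils, held 1.31 and 1.14 CPM against 4.64 and 7.39 CPM. The higher one was Padi4, the deiminase that citrullinates histones, with 163 and 130.0 CPM in the libraries labelled Cre+/-, against 38.1 and 74.1 CPM in those labelled fl/fl. All 6 oxidase genes were tested, of which 3 were lower and 0 higher, with a median of -1.26, or -0.77 without fl/fl replicate 1, and 1 was lower without either Cre+/- library and 5 without fl/fl replicate 2. Rac2, the GTPase that switches the oxidase on, held 21.1 and 20.4 CPM in the libraries labelled Cre+/- against 62.7 and 56.3 CPM in those labelled fl/fl.

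**Figure D2:**
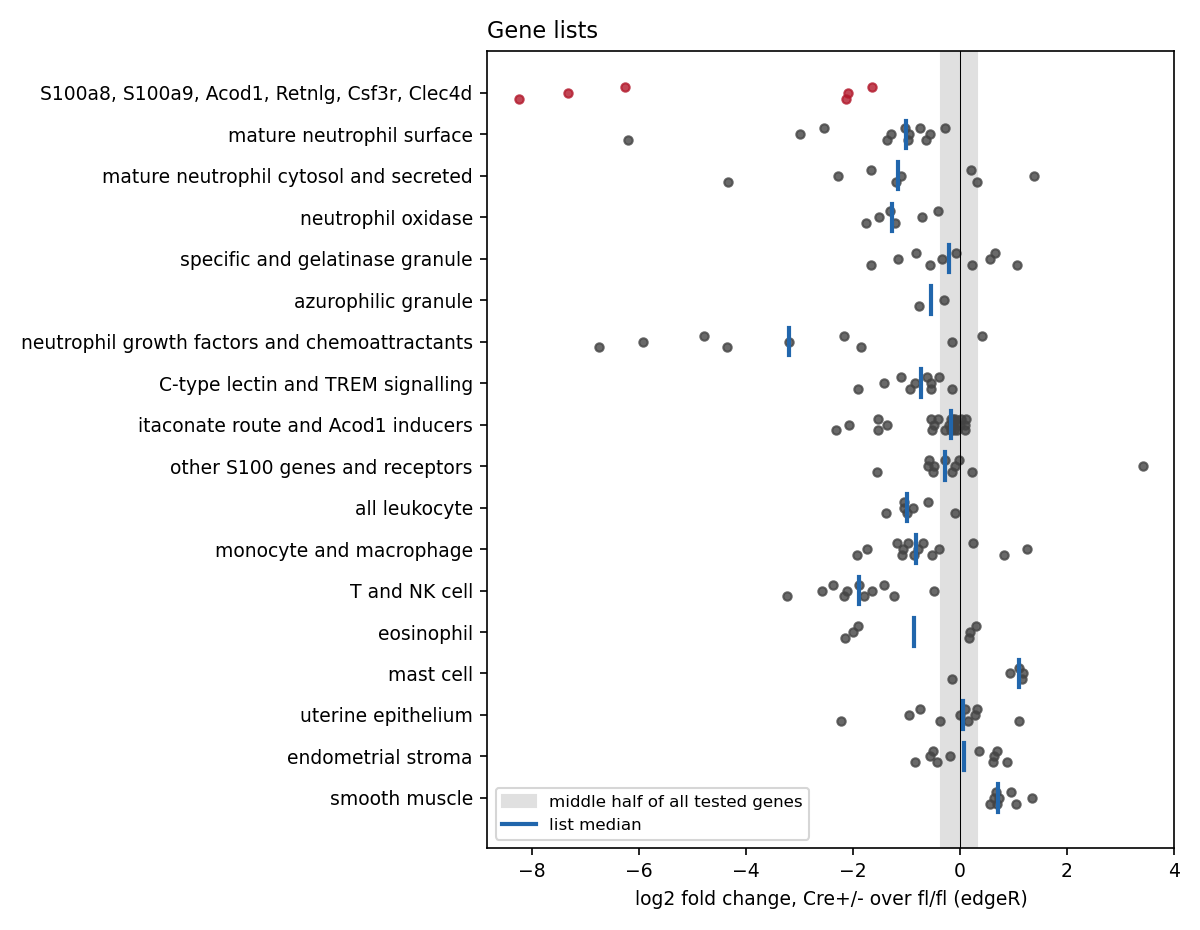
Log2 fold change of each tested gene on 17 lists, with the 6 tested genes of the set on the top line, from edgeR. A negative value is lower in the libraries labelled Cre+/-, blue bars are list medians, and the grey band spans the lower to the upper quartile of all tested genes, -0.36 to 0.31. S100a8, S100a9 and Acod1 lie left of nearly every other gene, beside Cxcr2, Cxcl2 and Cxcl5.

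The libraries labelled fl/fl differed between themselves in a way that split the 9 genes. S100a8, S100a9, Trem1 and Clec4d were higher in fl/fl replicate 2, and Acod1, Retnlg, Csf3r, Ngp and Mpo in fl/fl replicate 1. The ratio of replicate 2 to replicate 1 was 2.27 for S100a8 (95% interval 1.95 to 2.65), 3.18 for S100a9 (2.73 to 3.71) and 2.50 for Trem1 (1.53 to 4.15). It was 0.437 for Acod1 (0.398 to 0.478), 0.450 for Retnlg (0.412 to 0.490) and 0.600 for Csf3r (0.511 to 0.701). These 6 intervals, which cover counting error only, do not span a ratio of 1, so the split is wider than counting error in those genes. For Clec4d the ratio was 1.25 (0.846 to 1.86), for Ngp 0.270 (0.0287 to 1.27) and for Mpo 0.600 (0.135 to 2.15), and the direction is not settled at this depth.

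**Figure D3:**
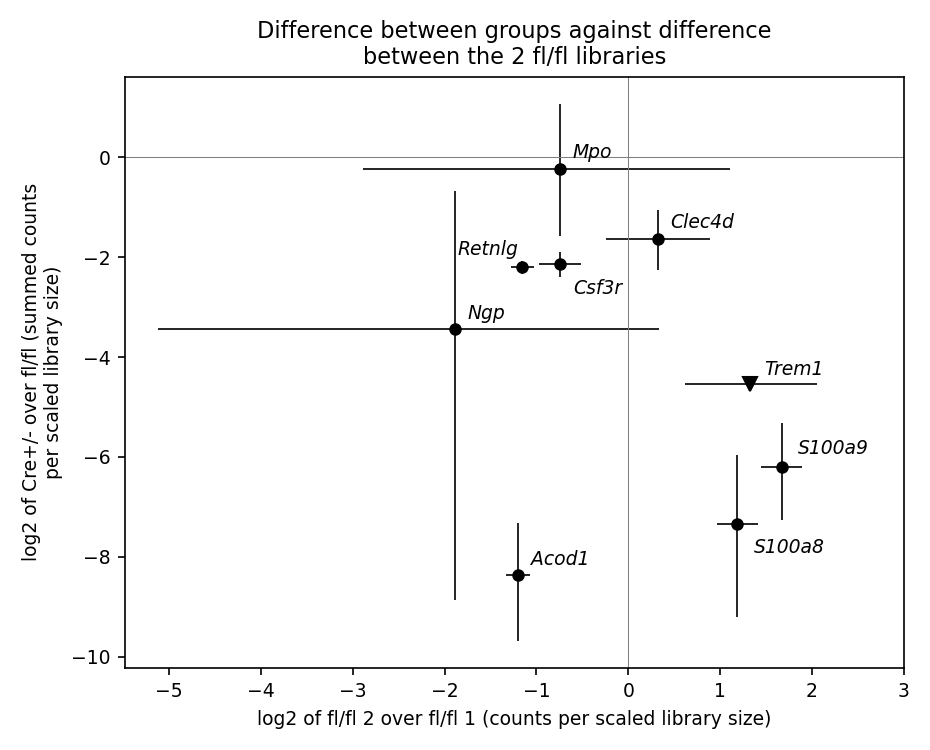
Each gene's log2 ratio of the groups, from counts summed over the 2 libraries of each (vertical axis, libraries labelled Cre+/- over fl/fl), against its log2 ratio of fl/fl replicate 2 to fl/fl replicate 1 (horizontal axis). Lines are 95% exact binomial intervals of counting error, and the triangle for Trem1 marks a bound set by 3 counts. Acod1 and S100a8 lie at a like height on opposite sides of the vertical line at 0.

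Ratios between genes within a library set their levels against each other free of its depth. Per length, the FPKM ratio of Retnlg to Csf3r was 21.0 and 22.4 in the libraries labelled Cre+/-, against 24.4 and 18.3 in those labelled fl/fl, so the groups overlapped and the ratio was nearly level over the 4 libraries. The FPKM ratio of Retnlg to S100a8 was 351 and 96.4 in the libraries labelled Cre+/-, against 9.22 and 1.83 in those labelled fl/fl. S100a8 was therefore much lower relative to Retnlg in the libraries labelled Cre+/-, by a ratio that rests on 1 and 3 counts of S100a8. The FPKM ratio of Acod1 to S100a8 was 1.59 and 0.0882 in the libraries labelled Cre+/-, against 1.92 and 0.370 in those labelled fl/fl, and these overlapped, again with 1 and 3 counts of S100a8 and 6 and 1 counts of Acod1 under the Cre+/- label. Retnlg came first per length in the libraries labelled fl/fl as well, at 154 and 64.8 FPKM. Next came S100a9 at 40.2 ± 28.2 FPKM, S100a8 at 26.1 ± 13.3 FPKM and Acod1 at 22.6 ± 13.4 FPKM (mean ± SD, n = 2), which stood in a different order in each fl/fl library and lie within each other's spread. Csf3r at 4.92 ± 1.96 FPKM, Clec4d at 1.69 ± 0.190 FPKM and Trem1 at 0.655 ± 0.371 FPKM followed in that order in both libraries, with Ngp and Mpo last.

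**Figure D4:**
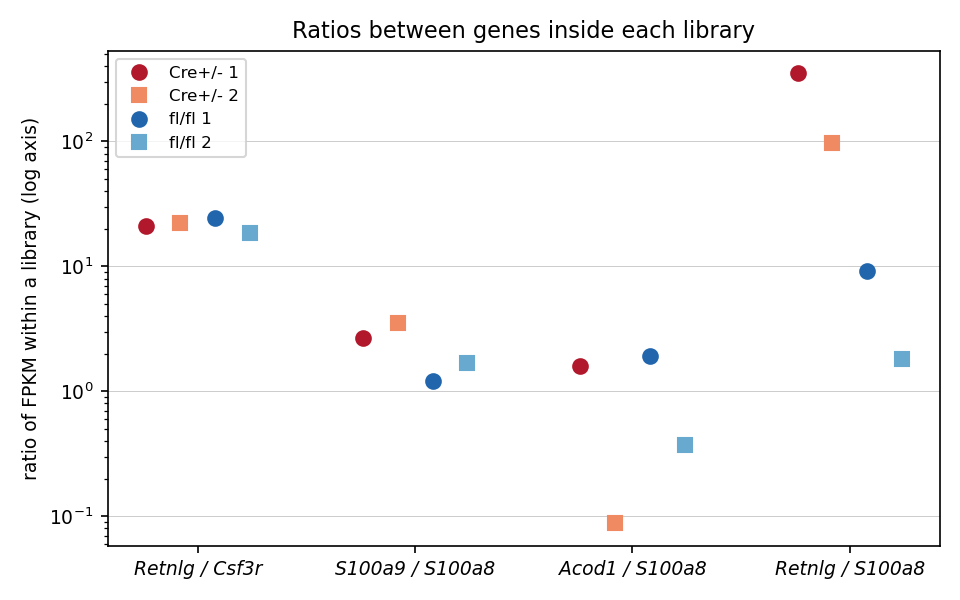
Ratios of FPKM between pairs of genes within each library, on a log axis, with the libraries labelled Cre+/- in red and orange and those labelled fl/fl in blue. Retnlg over Csf3r stays between 18.3 and 24.4, while Retnlg over S100a8 runs from 1.83 to 351.

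Among the signals that draw and expand neutrophils, some were lower in the libraries labelled Cre+/- and others overlapped between the groups. Of 15 growth factors and chemoattractants 9 were tested, and 5 were lower and 0 higher at an unadjusted p under 0.05, with a median log2 fold change of -3.20, which was -1.89 without fl/fl replicate 2. The number lower was 3 without Cre+/- replicate 1. Il1b, the cytokine interleukin-1 beta, held 0.757 and 0.515 CPM in the libraries labelled Cre+/- against 11.7 and 23.8 CPM in those labelled fl/fl, and Tnf 0.959 and 0.686 CPM against 5.57 and 9.67 CPM. Cxcl5, a ligand of CXCR2, held 1.21 and 1.20 CPM in the libraries labelled Cre+/-, against 5.52 and 143 CPM in those labelled fl/fl. Il1b, Tnf, Cxcl1, Cxcl2 and Cxcl5 averaged under 1 FPKM in the libraries labelled Cre+/- and passed the filter only through those labelled fl/fl. The count and median of this list therefore do not support a statement on it.

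Several ligands were high in fl/fl replicate 2 and not in fl/fl replicate 1. Csf3, which encodes G-CSF, the ligand of Csf3r, held 9.39 and 6.29 CPM in the libraries labelled Cre+/-, against 1.94 and 69.1 CPM in those labelled fl/fl, so its groups overlapped. Cxcl1 held 0.505 and 0.743 CPM in the libraries labelled Cre+/-, against 0.337 and 25.5 CPM in those labelled fl/fl, and Cxcl2 held 0.202 and 0.0572 CPM against 0.506 and 29.4 CPM. S100a8, S100a9 and Trem1 were also highest in that library, but unlike Csf3 and Cxcl1 they were above the libraries labelled Cre+/- in fl/fl replicate 1 as well. Il1b, Tnf, Cxcl2 and Cxcl5 stood in that same order. For Cxcl2 it rests on 12 counts in fl/fl replicate 1, against 4 and 1 counts in the libraries labelled Cre+/-.

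**Figure D5:**
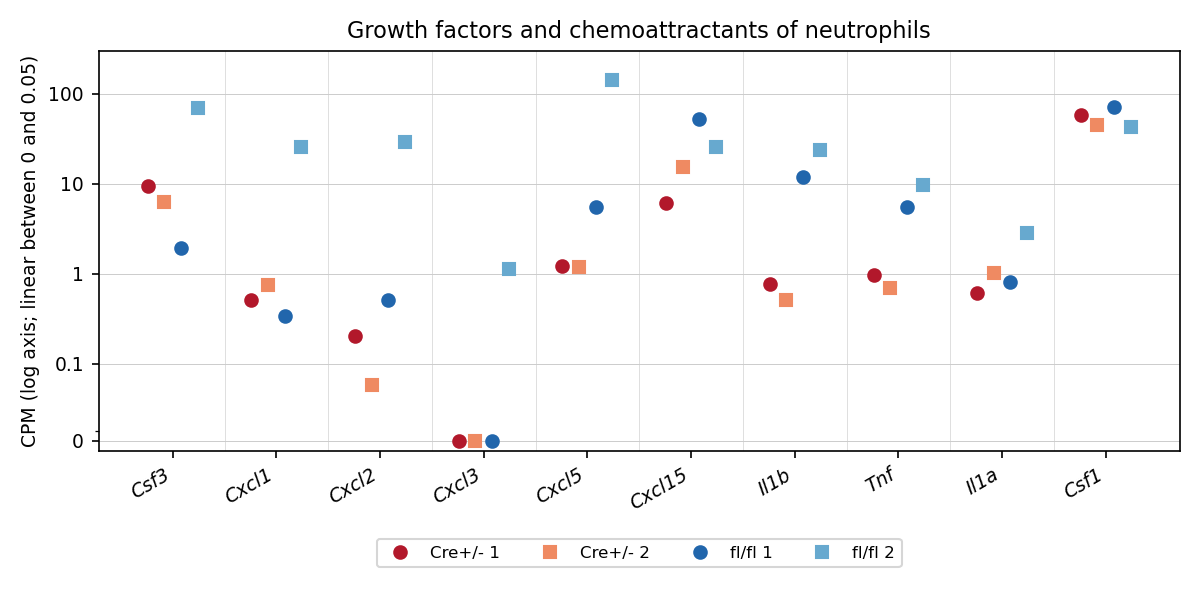
CPM of 10 growth factor and cytokine genes in each library, on a log axis that is linear between 0 and 0.05, with the libraries labelled Cre+/- in red and orange and those labelled fl/fl in blue. Il1b, Tnf and Cxcl5 separate the groups, whereas Csf3, Cxcl1 and Cxcl3 stand out in fl/fl replicate 2 alone.

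Profiles were compared by Euclidean distance of centred log2(CPM + 0.5) over the 4 libraries, among tested genes outside the set described here. Predicted genes, numbered clones and immunoglobulin segments were also left out. Of the genes so compared, those most like S100a8 were Il1b (1.01), Sprr2g (1.22), Slfn4 (1.29), Sprr2b (1.36) and Cxcr2 (1.60). Those most like Acod1 were Sprr2b (2.03), Ccl22 (2.34), Cxcl10 (2.65), Cxcl9 (2.73) and Il1b (2.87). Among the genes compared, Acod1 thus had no neighbour as close as those of S100a8. Sprr2b and Sprr2g encode small proline-rich proteins of epithelium from a cluster of similar genes, among which reads can be split. Sprr2b held 0.202 and 0.114 CPM in the libraries labelled Cre+/-, against 25.1 and 80.1 CPM in those labelled fl/fl. Cxcl10, an interferon-induced chemokine, held 2.07 and 2.69 CPM in the libraries labelled Cre+/-, against 229 and 17.2 CPM in those labelled fl/fl, with fl/fl replicate 1 the highest, as for Acod1.

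Markers of several other white cells were also lower under the Cre+/- label, and their part in the values of S100a8, Acod1 and the other genes was not tested. Of 7 genes shared by all leukocytes 5 were lower and 0 higher at an unadjusted p under 0.05, with a median log2 fold change of -0.99, or -0.53 without fl/fl replicate 1, with 1 lower without either Cre+/- library, and sums of 341 and 358 CPM in the libraries labelled Cre+/- against 639.8 and 467 CPM in those labelled fl/fl. Of 14 monocyte and macrophage genes 8 were lower and 2 higher (4 lower without Cre+/- replicate 1 and 1 without Cre+/- replicate 2), with a median of -0.83, or -0.46 without fl/fl replicate 1, and sums of 596.5 and 531 CPM against 1087 and 670.4 CPM. Of 12 T and NK cell genes 11 were tested and 9 were lower (5 without Cre+/- replicate 2), with a median of -1.88 and sums of 27.8 and 28.5 CPM against 106 and 103 CPM. Eosinophil genes had 2 of 6 tested lower and a median of -0.86, or -0.32 without fl/fl replicate 1, with 0 lower without Cre+/- replicate 1, and the eosinophil granule gene Epx had at most 1 count in any library. Mast cell genes had 0 of 5 lower and 2 higher, with a median of 1.10. It was -0.11 when genes needed a mean FPKM of at least 5, which left Kit alone. B and plasma cell genes had 2 of 5 tested lower and a median of -0.73, with 0 lower without either Cre+/- library and a median of -0.26 without Cre+/- replicate 2 and -0.48 without fl/fl replicate 2, and red cell and platelet genes 0 of 5 lower and 2 higher and a median of 0.52, or 0.24 without fl/fl replicate 1. Of 11 tested genes known from the progesterone response and implantation, 2 were lower and 0 higher, with a median of -0.14, which was 0.07 without Cre+/- replicate 2 and 0.40 without fl/fl replicate 2, and 0 were lower without either Cre+/- library. Among the T and NK cell genes, Cd3d, Cd4, Cd8a, Gzma and Prf1 averaged under 1 FPKM in the libraries labelled Cre+/-. They passed the filter only through the libraries labelled fl/fl, so the count and median of that list do not support a statement on it. In bulk tissue, fewer cells of a type and less RNA of a gene per cell cannot be told apart.

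Tests of single genes were limited by the number of libraries. An exact two-sided permutation test of 2 against 2 values cannot give a p below 0.333, which is the value for each of the 8 genes whose groups did not overlap. All 6 tested genes had an unadjusted edgeR p under 0.05, but S100a8, S100a9, Acod1 and Clec4d averaged under 1 FPKM in the libraries labelled Cre+/- and passed the filter only through the libraries labelled fl/fl, so this count does not support a statement on the set. S100a8, S100a9, Csf3r, Acod1 and Retnlg passed an adjusted p of 0.05 in 4 of the alternative analyses, namely with no filter, with DESeq2 and without either fl/fl library. The share of all tested genes called lower was 3.41% with no filter, 3% with DESeq2, 13.9% without fl/fl replicate 1 and 11.4% without fl/fl replicate 2.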

How the data were processed

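Per the file headers, the authors deposited 1 table for each of 4 libraries with a raw whole-number count and an FPKM value for every gene. Reads were handled with HISAT2 and HTSeq 0.13.5 on GRCm38, per the submitters' processing notes. Whether counting used strand is not given in the sources used here. Each deposited FPKM is the gene's count over its length and the library total: that length was the same within 1e-06 in 23463 of 23463 genes. Of 28545 identifiers 28447 were found in GENCODE mouse release M21, the source of coordinates and exon overlaps.

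The 13513 genes averaging 1 FPKM or more were tested with edgeR 4.0.16 (R 4.3.3, limma 3.58.1) by the quasi-likelihood test after TMM scaling, with no term but the group, two-sided p-values and Benjamini-Hochberg adjustment over these genes. The other 15032 were not tested. The SE was derived from the log2 fold change and its F statistic, and CPM from TMM-scaled totals. Ratios of summed counts carry 95% exact binomial intervals, which, like the limit of 3 counts for a count of 0, cover counting error only. The procedure was tested on simulated data.

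The 9 genes and 20 gene lists were chosen with earlier results of these data known. Genes named from a list came from its 3 with the smallest p and its defining markers, not all of which are printed. Others came from the 5 profiles nearest S100a8 and Acod1 outside the set. Csf3, Cxcl1, Cxcl2, Cxcl3, S100g, Myd88, Ltf, Ly6g, Camp, Clec4e, Prtn3, Ctsc and Epx were named after their values were seen where the rule does not give them. Some listed genes are not reported by name here. Alternatives were scaling, filter, pseudocount, DESeq2 1.42.0, limma on log2(FPKM + 1), a robust fit, the replicate number as a block and each library left out.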

Additional observations from a re-analysis of the deposited data

How the results depend on the processing

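The count of genes called at an adjusted p under 0.05 was 0 in the main edgeR analysis, with 891 lower and 987 higher at an unadjusted p under 0.05. It was 1928 with no filter on low values (933 lower, 995 higher), 1 with a mean FPKM of at least 5, 843 with DESeq2 (405 lower, 438 higher), and from 0 to 4249 when a library was left out. Without fl/fl replicate 1 it was 4249, without fl/fl replicate 2 it was 2942, and without either Cre+/- replicate it was 0; the lone library of a group is then assumed to vary like the other group. The other analyses called 0.

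No log2 fold change of S100a8, S100a9, Acod1, Retnlg, Csf3r or Clec4d reversed in any alternative. The values ran from -8.34 to -4.46 for S100a8, -7.64 to -4.59 for S100a9, -9.86 to -4.34 for Acod1, -2.60 to -1.44 for Retnlg, -2.42 to -1.43 for Csf3r and -1.93 to -0.80 for Clec4d. The value nearest 0 came from limma on log2(FPKM + 1), a scale that understates low genes, for each of them except Retnlg, where it came without fl/fl replicate 1. Clec4d passed an adjusted p of 0.05 without fl/fl replicate 1 (0.0158). With no filter 6 of the 9 genes passed, where 3.41% of 27379 genes were called lower. The medians of several lists changed sign: epithelium (-0.30 to 0.38), stroma (-0.06 to 0.23), progesterone genes (-0.23 to 0.40), mast cells (-0.11 to 1.33), specific granules (-0.35 to 0.19), S100 genes (-0.61 to 0.03) and mature neutrophil cytosol (-1.63 to 0.30). The -0.11 and the 0.30 came with a mean FPKM of at least 5, which changed the genes behind the median. That filter left Kit alone of the mast cell genes and removed Slfn4 and Asprv1 from the cytosol list. The number of genes lower at an unadjusted p ran from 3 to 9 for mature neutrophil surface genes, 1 to 8 for cytosolic and secreted genes, 2 to 8 for growth factors and chemoattractants and 1 to 11 for monocyte and macrophage genes.

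The replicate numbers are shared by name only: with the replicate block 0 genes were called, and the differences between replicates 1 and 2 had a correlation over genes of -0.08 between the groups. The block changed no call.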
